A study of Mus musculus with 6 samples.

Results

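The cytosolic ribosomal protein genes were followed in lung endothelial cells (ECs) of AngII-infused mice, with 3 libraries of wild type (WT) littermates set against 3 of leene-knockout (KO) animals. Members were chosen by name: every gene whose symbol is that of a large-subunit (Rpl) or small-subunit (Rps) protein, together with Rpsa, Rplp0, Rplp1 and Rplp2, that is not labelled a pseudogene in its symbol and holds at least 60 counts over the 6 libraries. Of 47729 genes in the count tables, 89 carried such a name and 81 passed the minimum, 48 of the large and 33 of the small subunit. The rule used the summed counts but no contrast. The gap at the minimum was wide, since the lowest member, Rpl36al, held 1346 counts and the highest of the 8 genes left out, Rps3a3, held 27.

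Both groups were male C57BL6 mice of 14 weeks that had received AngII at 1000 ng/kg/min from osmotic pumps for 2 weeks. The KO mice lack the mouse region syntenic to human LEENE/LINC00520, and their WT littermates are the only control, so no library shows the ribosomal protein genes without AngII. The sample labels name enrichment through CD31 and pooling of the cells of 3 mice in a group, whereas the study's methods name CD144, and it is not given whether a library is 1 mouse. P-values therefore measure the spread between libraries, which may be technical.

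A ribosome joins a small subunit, which reads the mRNA, to a large subunit, which forms the peptide bond, and each subunit is built from ribosomal RNA and one copy of most of its proteins. Because the proteins are needed in near-equal numbers, their mRNAs are among the most abundant and most evenly regulated of a cell. Many of these mRNAs begin with a terminal oligopyrimidine (TOP) tract, through which mTOR and Larp1 control their translation more than their amount. The genes are also known for their many processed pseudogenes, copies of the spliced mRNA pasted elsewhere in the genome, which make a short read hard to place.

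The 6 libraries held 24464324 to 35184063 counts, of which mitochondrially encoded genes took 37.4% to 54.5%. The TMM factor of WT replicate 1, the scaling that edgeR fits to each library, stood apart at 1.37 against 0.874 to 1.04 elsewhere. The 10 endothelial markers summed to 1182 to 2658 CPM (counts scaled to library size), so ECs were present, but the 3 club cell markers summed to 15337 to 56724 CPM and the 5 alveolar type II markers to 4931 to 46356 CPM, the lowest in WT replicate 1. The 5 B cell markers summed to 6.46 to 16.4 CPM in WT and 59.2 to 65.3 CPM in KO libraries, and all 5 were higher in every KO library. The 4 T cell markers summed to 1.66 to 3.37 CPM in WT and 4.45 to 6.79 CPM in KO and so separated the groups too, while the sums of the 5 macrophage markers (42.4 to 137 CPM) and the 5 erythroid markers (61.0 to 102 CPM) overlapped between groups. Levels below are thus those of a mixture of cells, in which fewer cells of a type and less RNA per cell cannot be told apart, and the part of these other cells in any value was not tested.

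How far 50-base reads of each mRNA could be told from those of other genes was estimated from its sequence. The files hold reads of 50 bases that align to 1 place, so each member's principal transcript was cut into all its 50-base words. The share of words found in no annotated transcript of another gene, on either strand, was taken as the member's unique share. Of the 81 members, 44 had fewer than 50% unique words and 17 fewer than 20%. The lowest shares were those of Rps27 (1.4%), Rpl35 (4.9%), Rpl5 (6.2%), Rpl9 (6.7%) and Rpl10 (7.9%), and the longest stretch in common with another gene was 1018 bases, in Rpl5. Only annotated transcripts could be searched, so the true shares may be lower. A share also depends on the 1 transcript taken per gene, which was 5179 bases long for Rps15a (93.6%) and 3706 for Rps20 (92.4%). Nor does a share measure what was counted, since Rps27, with 4 unique words of 296, held 5139 counts over the 6 libraries. Its words came from a transcript of 345 bases, whereas reads were counted over 1043 exonic bases.

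The middle word of the coding sequence is shown, in lower case, as an example for 3 members whose copies are exact and 2 whose copies are not. Beneath each of the latter stands the closest stretch in another gene, with the mismatched bases in capitals. The part of such copies in the values that follow was not tested.
Rps12: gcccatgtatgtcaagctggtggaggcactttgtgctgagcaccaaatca
Rpl10: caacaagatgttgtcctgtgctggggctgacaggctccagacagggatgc
Rps6: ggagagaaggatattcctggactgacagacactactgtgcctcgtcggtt
Rpl4: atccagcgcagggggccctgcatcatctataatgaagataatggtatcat
Gm5835: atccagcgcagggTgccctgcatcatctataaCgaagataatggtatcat
Rps3: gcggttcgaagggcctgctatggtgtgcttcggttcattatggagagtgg
Gm8130: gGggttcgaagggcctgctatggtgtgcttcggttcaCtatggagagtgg

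In GRCm38 the Rps12 word lies within 1 coding exon at chr10:23785913-23785962 on the minus strand, and 9 other genes hold it unchanged. The Rpl10 word joins 2 exons at chrX:74272285-74272688 on the plus strand and is found unchanged in 6 other genes, and the Rps6 word joins 2 exons at chr4:86855965-86856146 on the minus strand and is found in 1, the processed pseudogene Rps6-ps4. The Rpl4 word, in 1 exon at chr9:64176998-64177047 on the plus strand, differs from its closest copy, the processed pseudogene Gm5835, at 2 bases. The Rps3 word joins 2 exons at chr7:99480025-99481707 on the minus strand and differs from the processed pseudogene Gm8130 at 2 bases. A full-length read of Rps12, Rpl10 or Rps6 at this place matches more than 1 gene letter for letter, while one of Rpl4 or Rps3 matches 1. How the aligner weighed a spliced against an unspliced match is not given in the sources used here.

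Levels between genes were compared as CPM per kilobase of the exonic length in the files. They ran from 442 for Rplp1 to 3.62 for Rpl10a, a 122-fold range. Over the length of the principal transcript, which leaves out the exons of other isoforms, the same genes stood at 438 and 11.7, a 37.6-fold range. The highest members were Rplp1, a stalk protein that recruits elongation factors, at 435 ± 28.8 in WT and 449 ± 50.6 CPM per kilobase in KO (SD, n = 3), and Rpl8, a protein near the peptidyl transferase centre, at 356 ± 27.8 and 370 ± 37.3. Rps15, Rpl4 and Rpl13a followed at 300, 299 and 279 CPM per kilobase over the 6 libraries, with ranges over the libraries that overlap. The lowest were Rpl10a, Rpl27, Rpl36al, Rpl22l1, Rps13 and Rpl5, at 3.62, 5.34, 5.70, 5.98, 6.97 and 7.79 CPM per kilobase. The ranges of neighbours in this order overlap too, and differences between genes within a library were not tested. By length of the principal transcript, a choice made after the data were seen, the 6 lowest were Rpl10a, Rpl7l1, Rps16, Rps15a, Rpl27 and Rpl36al at 11.7 to 14.7 CPM per kilobase, Rps13 stood at 31.8, and 7 of the 10 highest members stayed among the first 10. The median was 19.5 CPM per kilobase over large-subunit and 29.8 over small-subunit genes, with median unique shares of 41.3% and 56.0%. The 10 members with most counts (among them Rpl4, Rps3, Rpl8, Rpl13a, Rplp0, Rplp1, Rps15, Rps14 and Rps9) took 44.7% of the members' 1003724 counts.

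**Figure D1:**
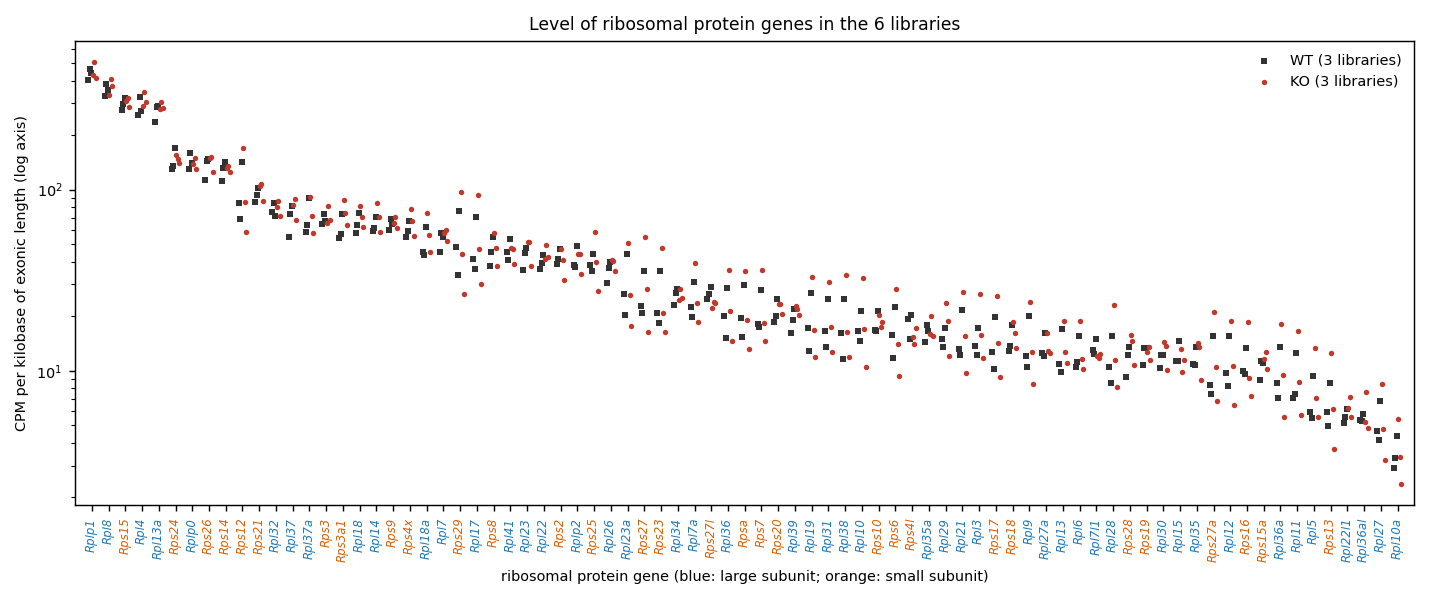
Level of 79 ribosomal protein genes in CPM per kilobase of exonic length (log axis), ordered by the mean of the 6 libraries, with WT libraries as black squares and KO libraries as red circles. The libraries of both groups overlie each other for the highest genes and spread apart for many lower ones, such as Rps29, Rps12 and Rpl17.

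The order followed the unique share in part, with a Spearman rho of 0.36 across the 81 members between unique share and level per kilobase and -0.47 between the longest identical stretch and that level. Both are descriptions over genes measured in the same 6 libraries. With the level divided by the number of unique words in place of the length, 4 of the 10 highest members stayed in the first 10 and Rps27, Rpl9 and Rpl10, which had ranked 36, 59 and 49, moved up into them. By its form this division raises members with few unique words, and Rps27 had 4, Rpl9 46 and Rpl10 59. The new order is therefore no separate result. Because reads without a unique alignment were not counted, low values per kilobase cannot be read as low mRNA amounts for members with few unique words.

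No ribosomal protein gene passed the test of KO against WT libraries. All 81 members were tested among 14625 genes with edgeR's quasi-likelihood test, and 0 passed a Benjamini-Hochberg adjusted p of 0.05, where 0.109% of all genes passed. At an unadjusted p under 0.05 the count was also 0 of 81, against 10.3% of all genes. DESeq2 and limma-voom called 0 members as well, with 1.12% and 0.178% of their genes called. The smallest adjusted p of a member was 0.582, that of Rps27l. No member had every KO library above every WT library, which 8.59% of all genes had, and 1 member, Rps27l, had every KO library below every WT library, as 9.2% of all genes did.

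The fitted log2 fold changes of KO against WT lay between -0.23 and 0.33, and 74 of the 81 (91.4%) were within 0.25 of zero, compared with 54.4% of all genes tested and 65.1% of the 8000 genes in the members' range of mean log2 CPM. The median was 0.10, with 73 members above zero, beside a median of 0.03 over all genes, of which 54.1% were above zero. That direction did not hold under every setting, since 22 members were above zero with total-count scaling (median -0.06), 34 with offsets for GC content and length (median -0.03) and 29 without KO replicate 1 (median -0.10). Without WT replicate 1 the count was 52 (median 0.02), and without WT replicate 2 it was 45 (median 0.01). Total-count scaling moved the median of all genes from 0.03 to -0.13, and relative to all genes the members' median was 0.07 with either scaling. The median standard error (SE) of a member was 0.18.

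**Figure D2:**
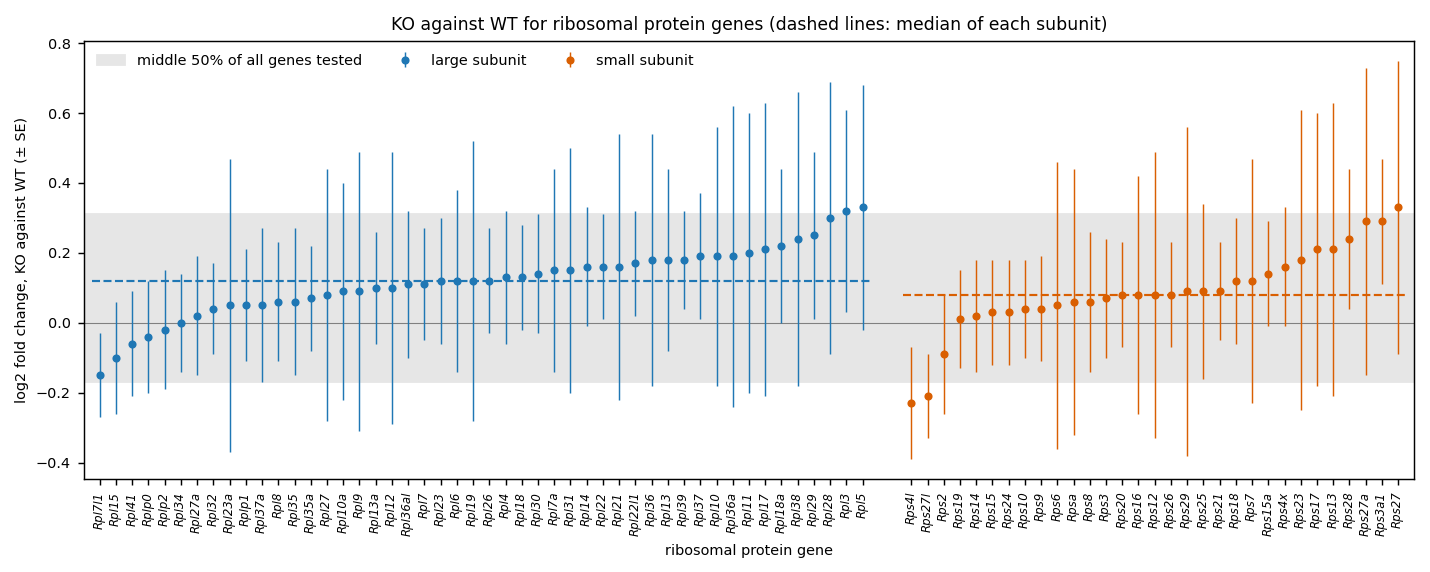
Log2 fold change of KO against WT for 79 ribosomal protein genes, each with its standard error, large subunit in blue and small subunit in orange, each ordered from low to high, with the median of each subunit dashed and the middle 50% of all genes tested in grey. All points but those of Rps4l, Rps27l, Rpl5, Rps27 and Rpl3 lie inside the grey band, and the medians of 0.12 and 0.08 are closer to each other than 1 standard error of a gene.

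The summed level of the family showed the same overlap. Its members took 0.697%, 0.544% and 0.544% of the counts of the WT libraries, in the order of their replicate numbers, and 0.585%, 0.576% and 0.538% of those of the KO libraries. The WT range contains 2 of the KO values and KO replicate 3 lies just beneath it. The means were 0.595 ± 0.0886% in WT and 0.566 ± 0.0247% in KO (SD, n = 3), so the mean share was 0.03 percentage points lower in KO, though 0.02 points higher without WT replicate 1, and the median log2 fold change was slightly above zero. Of the counts outside mitochondrially encoded genes, the members took 1.06 ± 0.16% in WT and 0.975 ± 0.108% in KO.

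The medians of the large and the small subunit lay close to each other. Of the 48 large-subunit genes 43 and of the 33 small-subunit genes 30 had a log2 fold change above zero, with medians of 0.12 and 0.08, but the medians were -0.02 and -0.09 with total-count scaling, 0.00 and -0.05 with GC and length offsets, and -0.10 and -0.04 without KO replicate 1. The difference between subunits changed sign in the last of these, and 0 genes of either were called. Small-subunit genes took 43.1%, 42.7% and 43.1% of the members' counts in WT and 42.6%, 42.5% and 42.6% in KO libraries. Each WT value was thus above each KO value, by under 1 percentage point, and as a sum over chosen genes this difference was not tested. Within a library, the large-subunit median of log2 CPM minus the small-subunit median ran from -0.28 to 0.01 in WT and from -0.27 to -0.09 in KO.

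Single libraries of 1 genotype differed by up to 1.86 on the log2 scale. The fitted differences between genotypes, at most 0.33 in size, are not the same measure, since each rests on 3 libraries per group. Members differed widely in how much they varied. Rps12, with values in the order of the replicate numbers here and below, read 40.4, 32.8 and 67.3 CPM in WT and 80.3, 40.9 and 27.6 CPM in KO. Rps29 was at 33.3, 23.4 and 52.8 CPM in WT and 67.1, 30.6 and 18.5 CPM in KO, and Rpl17 at 31.9, 28.2 and 54.7 CPM in WT and 72.8, 36.3 and 23.3 CPM in KO. In each of these genes KO replicate 1 was the highest and WT replicate 3 the next, while KO replicate 3 was the lowest. Rps3, which lines the channel where mRNA enters the small subunit, was at 288, 330 and 300 CPM in WT and 292, 366 and 305 CPM in KO. Rpl4, which lines the exit tunnel of the ribosome, was at 369, 462 and 386 CPM in WT and 409, 492 and 433 CPM in KO. Neither gene followed the order of the first set, and their highest library was KO replicate 2.

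Over the 81 members, KO replicate 1 was the highest library for 48, and KO replicate 3 was the lowest for 38 and WT replicate 1 for 32. The members were then divided into 3 sets of 27 by unique share. In the 27 members with the lowest share (1.4% to 28.7%), KO replicate 1 was the highest library for all 27, the median log2 difference between KO replicates 1 and 3 was 1.28, and that between WT replicates 3 and 2 was 0.77. In the middle 27 the medians were 0.54 and 0.37, and in the 27 with the highest share (61.7% or more) they were 0.16 and 0.13. In the 27 with the highest share, KO replicate 2 was the highest library for 12 and WT replicate 1 the lowest for 17. The median SD within a group fell from 0.55 to 0.28 and 0.15 in log2 CPM over the 3 sets. Genes at the members' range of mean log2 CPM had medians of -0.01 and 0.03 for the same differences.

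**Figure D3:**
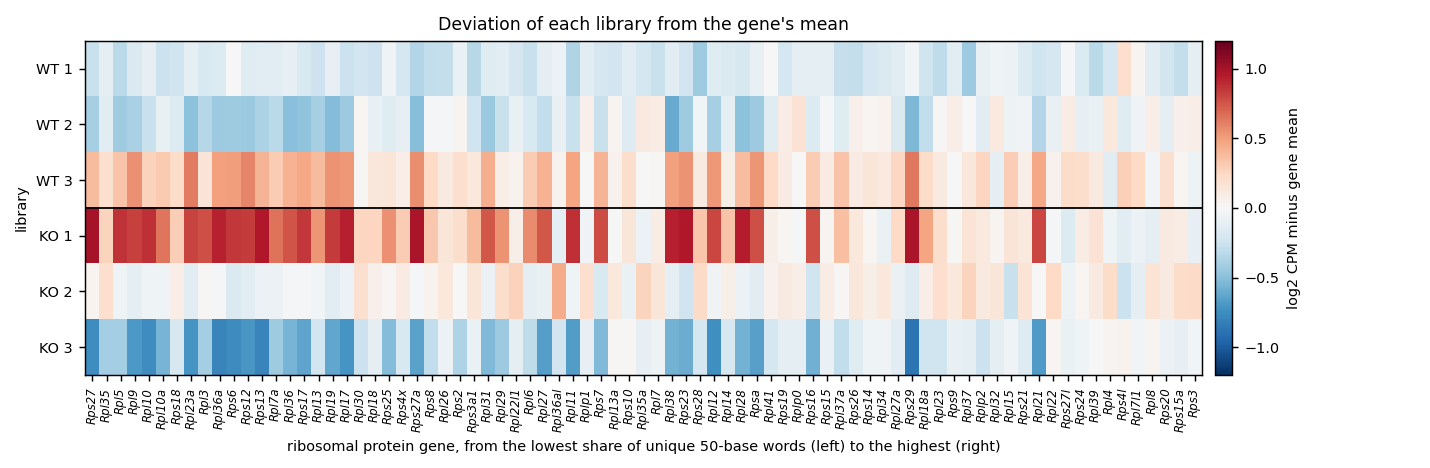
Log2 CPM of 79 ribosomal protein genes in each library minus the gene's mean over the 6 libraries (red above, blue below), with genes ordered from the lowest share of unique 50-base words on the left to the highest on the right and WT libraries above the line. KO replicate 1 and WT replicate 3 are red and KO replicate 3 and WT replicate 2 blue mainly on the left, where KO replicate 1 is the highest library of the first 27 genes.

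A difference above 0.5 on the log2 scale both between KO replicates 1 and 3 and between WT replicates 3 and 2 was found for 28 members (34.6%), as against 2.69% of all genes tested and 0.975% of the genes in the members' range of mean log2 CPM. These 28 had a median unique share of 21% and a median longest identical stretch of 412 bases, whereas the other 53 had 58.4% and 219 bases. The 28 took 14.1%, 10.9% and 17.8% of the members' counts in WT, by replicate number, and in KO they took 21.6%, 12.5% and 10.3%. Their median log2 fold change of KO against WT was 0.18, with 28 of 28 above zero, and that of the others was 0.08, with 45 of 53 above zero. Since the 28 were picked by the height of KO replicate 1 after the values had been seen, their fold change is no separate result.

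Across the 81 members, the log2 difference between KO replicates 1 and 3 had a Spearman rho of -0.65 with the unique share and 0.64 with the longest identical stretch, and of 0.86 with the difference between WT replicates 3 and 2. These are descriptions, as all points share the libraries and their depth. The relation had exceptions. Rps29 and Rpl21 varied by 1.86 and 1.48 between KO replicates 1 and 3 with 64.2% and 73.8% unique words, and Rps18 and Rpl18 varied by 0.49 and 0.38 with 13.3% and 25.7%. The share of Rpl21 refers to a transcript of 1856 bases, which shares words with 82 other genes. The middle coding word of Rps29 is found unchanged in 1 other gene, the processed pseudogene Gm14303. What the choice of transcript adds to these exceptions was not tested. WT replicate 3 and KO replicate 1 also had the highest mitochondrial shares, at 54.5% and 46.2% of counts against 37.4% to 40.4% in the other libraries, and the part of this in the pattern was not tested. Without both libraries, 51 members were above zero and their median log2 fold change was 0.03, equal to that of all genes.

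**Figure D4:**
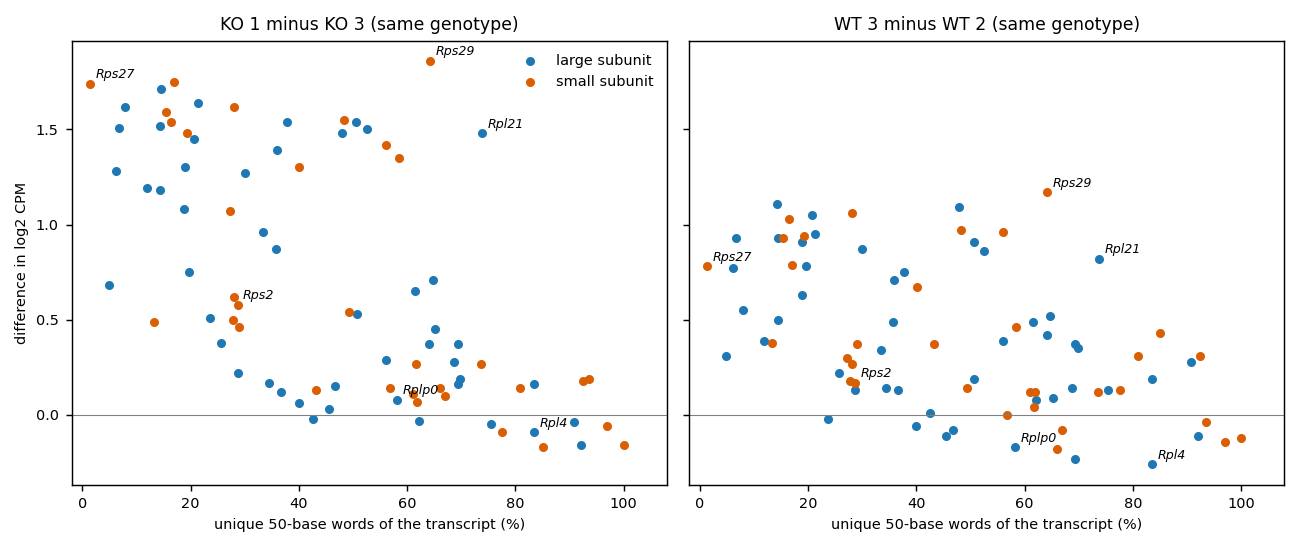
Difference in log2 CPM between libraries of the same genotype, KO replicate 1 minus KO replicate 3 on the left and WT replicate 3 minus WT replicate 2 on the right, against the percentage of unique 50-base words, 1 point per ribosomal protein gene. Genes with over 80% unique words lie between -0.26 and 0.43 in both plots, and most genes with the lowest shares lie above them, with Rps29 as the highest point at 1.86 and 1.17.

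Genes outside the rule that also encode ribosomal proteins were read in the same way. Fau, whose product is a fusion with the small-subunit protein eS30 and which has 23.1% unique words, was at 16.2, 15.0 and 29.8 CPM in WT and 35.0, 17.3 and 11.3 CPM in KO. Rack1, a scaffold on the small subunit with 99.1% unique words, was at 286, 372 and 295 CPM in WT and 294, 356 and 315 CPM in KO. Fau followed the order of Rps12, while Rack1 was highest in WT replicate 2, and their log2 fold changes were 0.06 and 0.02. Gapdh, a glycolytic gene with 9.6% unique words that was looked at after its values were seen, was at 14.5, 10.4 and 21 CPM in WT and 22.1, 9.85 and 6.17 CPM in KO, with the same order of the libraries at both ends.

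The stalk proteins form the arm of the large subunit that binds translation factors. Rplp0, the product of which carries the other two and whose mRNA served as the study's qPCR reference in tissue, was at 215, 263 and 234 CPM in WT and 229, 247 and 216 CPM in KO. The KO values lay within the WT range (log2 fold change -0.04, SE 0.16, edgeR adjusted p = 0.940). Rplp1 was at 200, 228 and 218 CPM in WT and 212, 251 and 204 CPM in KO (log2 fold change 0.05.) Rplp2 was at 79.5, 77.6 and 101 CPM in WT and 91.9, 91.1 and 70.9 CPM in KO (log2 fold change -0.02.) In all 3 stalk genes the groups overlapped.

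Rpl5 and Rpl11 travel with the ribosomal RNA of the central protuberance and, when unassembled, bind Mdm2 and so raise p53. Rpl5 had the highest fitted change of the large subunit, at 23.1, 21.5 and 36.6 CPM in WT and 52.6, 27.9 and 21.7 CPM in KO (log2 fold change 0.33, SE 0.35, edgeR adjusted p = 0.735). Rpl11 was at 19.0, 20.2 and 33.9 CPM in WT and 44.8, 23.5 and 15.3 CPM in KO (log2 fold change 0.20.) In both genes the groups overlapped and KO replicate 1 alone stood above every WT library. Without single libraries, the log2 fold change of Rpl5 lay between -0.15 and 0.59 and that of Rpl11 between -0.35 and 0.49.

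Rps6 is the substrate of S6 kinase and a common readout of mTOR activity. It was at 25, 18.7 and 35.6 CPM in WT and 45.1, 22.2 and 14.9 CPM in KO (log2 fold change 0.05, SE 0.41), and KO replicates 1 and 3 lay on either side of all WT values. Rps19, which is mutated in Diamond-Blackfan anaemia, was at 50.6, 62.4 and 62.6 CPM in WT and 59.5, 63.1 and 53.9 CPM in KO (log2 fold change 0.01, SE 0.14).

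The 6 highest fitted changes were those of Rpl5, Rps27, Rpl3, Rpl28, Rps3a1 and Rps27a, at 0.33, 0.33, 0.32, 0.30, 0.29 and 0.29. Rps27 was at 23.8, 21.7 and 37.3 CPM in WT and 57.3, 29.4 and 17.1 CPM in KO. Rpl3, a protein near the peptidyl transferase centre, was at 42.8, 38.2 and 53.9 CPM in WT and 82.9, 49.1 and 36.5 CPM in KO. All of the 6 but Rps3a1 varied by more than 1 on the log2 scale between KO replicates 1 and 3. Their log2 fold changes turned below zero when single libraries were left out, with lowest values of -0.15, -0.27, -0.09, -0.26 and -0.30 for Rpl5, Rps27, Rpl3, Rpl28 and Rps27a. Rps3a1 was at 52.5, 55.9 and 72.1 CPM in WT and 85.7, 73.0 and 62.4 CPM in KO, the overlap was that of KO replicate 3 with WT replicate 3, and its log2 fold change stayed between 0.15 and 0.43 when single libraries were left out (adjusted p = 0.585, edgeR).

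The 6 lowest were Rps4l, Rps27l, Rpl7l1, Rpl15, Rps2 and Rpl41, at -0.23, -0.21, -0.15, -0.10, -0.09 and -0.06. The 3 lowest are all paralogs of another member. Rps27l, a paralog of Rps27 that p53 induces, was at 20.2, 21.7 and 23.7 CPM in WT and 18.1, 19.5 and 19.3 CPM in KO. It was the member whose groups did not overlap, with a standard error of 0.12 and an unadjusted p of 0.133 from the fit across all genes. Rps4l, which the annotation calls a transcribed processed pseudogene although its symbol passes the rule, was at 18.1, 14.2 and 19.2 CPM in WT and 14.4, 13.2 and 16.2 CPM in KO. Rpl7l1, a Rpl7-like protein of ribosome assembly, was at 33.8, 32.2 and 39.1 CPM in WT and 31.5, 30.6 and 32.3 CPM in KO.

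Of the 8 paralog pairs looked at, 5 had both partners above the minimum. Rps27 stood at 29.8 CPM per kilobase beside 25 for Rps27l, with log2 fold changes of 0.33 and -0.21. Rps4x stood at 63.6 CPM per kilobase beside 16.8 for Rps4l, with log2 fold changes of 0.16 and -0.23. Rpl7 stood at 54.5 beside 12.8 CPM per kilobase for Rpl7l1, with 0.11 and -0.15. In these 3 pairs the paralog was the lower one by mean level over the 6 libraries. In WT alone, however, Rps27 stood at 26.5 ± 8.16 beside 26.8 ± 2.15 CPM per kilobase for Rps27l (SD, n = 3). Rps27 had 1.4% and Rps27l 77.6% unique words, so their levels cannot be ranked as mRNA amounts. By fold change the paralog was lower in the 3 pairs too, except that without KO replicate 1 the log2 fold change of Rps27 stood at -0.27 beside -0.19 for Rps27l. No difference between partners was tested. Rpl22 stood at 42.0 beside 5.98 CPM per kilobase for Rpl22l1, with 0.16 and 0.17. Rpl36a stood at 10.4 beside 5.70 CPM per kilobase for Rpl36al, with 0.19 and 0.11. In the other 3 pairs the partner was at or near zero, with 24 counts for the muscle paralog Rpl3l, 17 for the testis paralog Rpl39l and 0 for the testis paralog Rpl10l, summed over all libraries, while Rpl3, Rpl39 and Rpl10 held 8527, 5025 and 6477.

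The other genes beneath the minimum were Rpl24 with 9 counts, Rpl6l with 9, Rps12l1 with 0, Rps3a2 with 22 and Rps3a3 with 27. Rpl24 encodes a core protein of the large subunit, and 47.0% of its exonic bases are shared on the same strand with Gm28037, so that reads over them were counted for neither gene. The pseudogenes that carry a member's name took few reads. Of 273 such genes, which belong to 59 members, 79 held no count, and all of them together held 640 to 1349 counts per library, or 0.427% to 0.704% of the members' counts. The lowest shares were those of KO replicate 1 (0.427%) and WT replicate 3 (0.481%), the libraries in which members with few unique words were highest. Adding these reads to their parents left the median log2 fold change at 0.10 with 73 members above zero. Copies under other names, such as Gm5835, are outside this sum, and reads without a unique alignment were counted for no gene. These counts therefore do not measure the reads lost to pseudogenes.

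The starts of the genes were read from RefSeq windows on GRCm38.p6, which 60 of the 81 members had. A C at the annotated start followed by an unbroken pyrimidine run of at least 5 bases in all, the form of a TOP tract, was found in 13 (21.7%) of them and in 3.01% of the 27025 genes with such a window. The windows of 4 members named above are shown, from 10 bases before the start to 20 from it, with the run in capitals.
Rps27: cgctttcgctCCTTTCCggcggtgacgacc
Rpl28: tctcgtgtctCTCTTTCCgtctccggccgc
Rps6: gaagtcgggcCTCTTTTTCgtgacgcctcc
Rpl15: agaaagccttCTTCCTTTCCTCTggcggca

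They lie at chr3:90213629-90213658 on the minus strand for Rps27, chr7:4792955-4792984 on the plus strand for Rpl28, chr4:86857348-86857377 on the minus strand for Rps6 and chr14:18270967-18270996 on the minus strand for Rpl15. Rpl15, with the longest run of 13 pyrimidines, had a log2 fold change of -0.10, and Rps27 and Rpl28, with 7 and 8, had 0.33 and 0.30, none of which passed the test. A window without the run says only that the annotated start does not begin with these letters. The counts measure mRNA amounts and not translation, the step that the tract is known to control.

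Other genes of translation were set beside the ribosomal protein genes. Of 17 other genes listed for TOP mRNAs, which hold elongation and initiation factors but also proteins of other roles such as Hnrnpa1, Npm1 and Nap1l1, 0 were called and 13 had a log2 fold change above zero, with a median of 0.13 (-0.03 with total-count scaling, where 5 were above zero). The elongation factor gene Eef1a1 was at 844, 963 and 921 CPM in WT and 1121, 1054 and 880 CPM in KO, and Tpt1 at 99.3, 87.3 and 157 CPM in WT and 179, 104 and 65.6 CPM in KO, again with KO replicate 1 highest and KO replicate 3 lowest for Tpt1. Eif3e, a subunit of initiation factor eIF3, was at 43.3, 52.0 and 45.5 CPM in WT and 56.9, 62.9 and 55.5 CPM in KO, without overlap, with a log2 fold change of 0.32 (adjusted p = 0.473, edgeR).

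Of 24 ribosome biogenesis genes, 0 were called, and 9 had an unadjusted p under 0.05 (edgeR), all lower in KO. At that p, 684 of all 14625 genes tested were lower in KO, and 490 of the 8000 in the ribosomal protein genes' range of mean log2 CPM. Log2 fold changes were below zero in 22 of the 24, with a median of -0.29, beside 6714 of the 14625 and 4196 of the 8000. Every KO library was below every WT library in 14, compared with 9.2% of all genes and 1000 of the 8000. The count below zero was 20 to 24 and the median -0.48 to -0.25 under all settings tried. Nolc1, a nucleolar chaperone, was at 32.9, 28.1 and 27.8 CPM in WT and 21.2, 21.5 and 21.9 CPM in KO (log2 fold change -0.46, edgeR adjusted p = 0.305). Polr1a, the largest subunit of RNA polymerase I, was at 13.1, 14.2 and 12.6 CPM in WT and 9.66, 9.37 and 10.3 CPM in KO (log2 fold change -0.44, adjusted p = 0.363). Rrp12, needed for export of the subunits, was at 4.97, 5.37 and 4.63 CPM in WT and 3.05, 2.65 and 3.48 CPM in KO (log2 fold change -0.71, adjusted p = 0.335). None of these passed the adjusted test, the summed B cell markers (6.46 to 16.4 against 59.2 to 65.3 CPM) and T cell markers (1.66 to 3.37 against 4.45 to 6.79 CPM) separated the same groups, and their part in the values was not tested.

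Of 11 regulators of translation, 0 were called, 9 had a log2 fold change below zero and the median was -0.16 (-0.32 to -0.15 over all settings). Myc, which drives transcription of ribosomal genes, was at 4.43, 5.13 and 2.67 CPM in WT and 2.88, 2.28 and 1.52 CPM in KO (log2 fold change -0.89, adjusted p = 0.458, edgeR), with WT replicate 3 inside the KO range. Larp1 was at 59.2, 65.1 and 68.1 CPM in WT and 58.5, 54.1 and 54.5 CPM in KO, without overlap (log2 fold change -0.20, adjusted p = 0.579). Of 76 tested genes for mitochondrial ribosomal proteins, which build a separate ribosome for the mitochondrial genome, 0 were called and 58 were below zero, with a median of -0.09 (-0.25 with total-count scaling, and -0.02 without WT replicate 3 and KO replicate 1). None of the genes of these lists passed the test. With total-count scaling all 5 medians, that of the ribosomal protein genes included, were below zero, and the differences between lists were not tested.

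**Figure D5:**
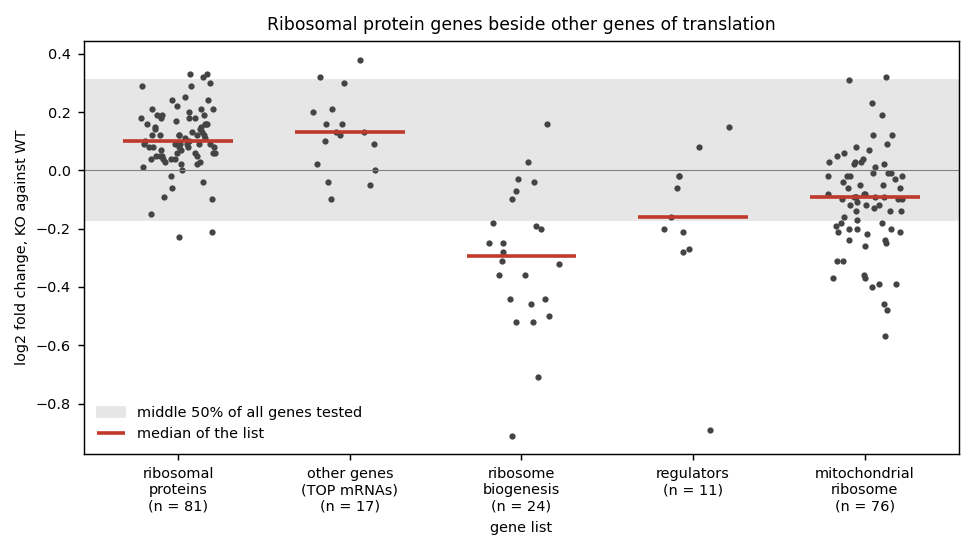
Log2 fold change of KO against WT for the 81 ribosomal protein genes, 17 other genes listed for TOP mRNAs, 24 ribosome biogenesis genes, 11 regulators and 76 genes of the mitochondrial ribosome, 1 point per gene, with the median of each list in red and the middle 50% of all genes tested in grey. The medians are 0.10, 0.13, -0.29, -0.16 and -0.09, and no gene shown passed an adjusted p of 0.05.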

How the data were processed

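Lung EC RNA was measured in 3 WT and 3 KO libraries, grouped by the sample labels. The authors deposited raw counts per gene. Per the file headers, featureCounts (Subread 2.0.0) counted reads over exons of Ensembl release 84 (GRCm38), on the reverse strand, from unique alignments only and in no more than 1 gene. The submitters' processing notes name bcl2fastq 2.18 and STAR 2.5.4b, and the study's methods give single reads of 50 bases. Reads shared with a pseudogene or with an overlapping gene are therefore missing from a member's count.

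Genes were named from GENCODE M21 (47224 of 47729 matched). Members and lists were chosen with earlier results of these data known. Counts were tested in R 4.3.3 with edgeR 4.0.16 (filterByExpr, TMM, glmQLFit and glmQLFTest, genotype as the only term) over 14625 genes, with Benjamini-Hochberg adjustment. The same fit was also run on simulated counts, whose means and spreads were taken from the fit to the real counts. The biological coefficient of variation was 0.256. No replicates agreed within sampling noise (lowest chi-square per degree of freedom 37). Libraries were scaled to CPM after TMM, and log2 CPM took a prior count of 2. Unique words and sequences came from GENCODE M21 transcripts and, for starts, from RefSeq.

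Named were members with an adjusted p under 0.05, the 6 highest and 6 lowest by log2 fold change and by level per kilobase, the 5 with the lowest unique share, the paralog pairs, stalk genes, Rpl5, Rpl11, Rps6 and Rps19. Rps12, Rps29, Rpl17, Rps3, Rpl21, Rps18 and Rpl18, and the genes named in the related lists, were picked after their values were seen. The values of 2 members are not reported here by name or drawn with a label. Alternatives were DESeq2 1.42.0, limma-voom (limma 3.58.1), other scalings and filters, GC and length offsets, each library left out, the replicate block and the reads of pseudogenes added.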

Additional observations from a re-analysis of the deposited data

How the results depend on the processing

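No ribosomal protein gene was called under any of the 19 alternative fits or at an adjusted p under 0.1. Calls over all genes went from 16 to 0 (replicate block, without KO replicate 1, 2 or 3, and without WT replicate 3 and KO replicate 1), 26 (RLE scaling, limma-voom), 31 (upper-quartile scaling), 52 (GC and length offsets), 123 (total-count scaling), 152 (no filter), 185 (DESeq2) and 789 (without WT replicate 2). The members' median log2 fold change of 0.10 was 0.07 to 0.11 under the other tools, scalings and filters, except total-count scaling (-0.06) and the GC and length offsets (-0.03). It lay between -0.10 (without KO replicate 1) and 0.26 (without KO replicate 3) with 1 library left out. All of these moved by less than the spread of 0.40 between replicates (pooled SD). The medians of the large and small subunit and the share of counts also moved by less than their spreads, under every setting tried. Those spreads were 0.37, 0.46 and 0.07 percentage points. Because 0.40 is wider than the median of 0.10 itself, a change of sign also falls within it, so this does not show that the direction held. Members with at least 80% and 50% unique words, settings added after the data had been seen, had medians of 0.08 and 0.06. Of the 10 highest members per kilobase, 4 stayed among the first 10 per unique word, a division that by its form raises members with few such words. Replicate numbers did not pair the libraries (correlations of deviations from the group means of -0.081, 0.219 and 0.011), and with the replicate block the median was 0.08. Of 684 single-gene values under the alternatives, 665 moved by less than the spread between replicates and 19 by more. The plan to search words in the genome was not run, and annotated transcripts were searched instead.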
